A study of Homo sapiens with 4 samples.

Results

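The genes described are 8 transcription factor genes tied to blood stem cell competence: the PRDM genes MECOM and PRDM16, the TALE homeobox genes MEIS1, MEIS2, MEIS3, PBX2 and PBX3, and the bZIP gene HLF. They were taken by symbol from a table of 19912 genes, and each of the 8 was found once. The table compares endothelial cells positive for a GATA2/eGFP reporter, made from H1, a line of human embryonic stem cells, in WT cells (2 libraries) and in GFI1-KO cells (2 libraries); all 4 libraries come from cells chosen by that reporter. GFI1 is a transcriptional repressor active when hemogenic endothelium gives rise to blood, and the question is what its loss does to gene expression in the endothelium. The labels give neither the edited part of GFI1 nor the number of knockout clones, and nothing in them says that replicates were separate cultures, so the p-values reflect spread between these libraries that may be technical.

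MECOM encodes the zinc-finger factor EVI1 and, from a far upstream start, the longer MDS1-EVI1 form that carries a PR domain; it is needed for the maintenance of blood stem cells and is also expressed in endothelium. PRDM16 is its closest relative. MEIS and PBX proteins carry TALE homeodomains, bind DNA as partners of each other and of HOX proteins, and MEIS1 is required in blood stem cells. HLF, a factor of the PAR bZIP family, marks human blood stem cells once they have formed.

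The gene count of MECOM sums all its starts, and GENCODE places them up to 541 kb apart (19 transcripts with 14 distinct starts, 3:169083499-169663618, minus strand, GRCh38). RefSeq windows for GRCh38.p14 matched 7 of the 8 genes, in 12 windows. The 250 bases before the far upstream MECOM start and before the MEIS1 start are printed because these genes had the highest fold changes of the 8, and because GFI1 binds DNA through an AATC core. Only windows that overlap no annotated untranslated region are printed, which leaves out those before the 2 nearer MECOM starts. Capitals mark AATC or its reverse complement GATT, read 5′ to 3′ along the gene's strand.
MECOM, far upstream start, minus strand, chr3:169663713-169663962: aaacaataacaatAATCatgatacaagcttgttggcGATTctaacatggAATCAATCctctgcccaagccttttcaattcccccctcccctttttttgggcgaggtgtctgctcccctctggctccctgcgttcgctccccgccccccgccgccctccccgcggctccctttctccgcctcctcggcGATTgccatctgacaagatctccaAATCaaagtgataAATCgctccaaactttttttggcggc
MEIS1, plus strand, chr2:66434875-66435124: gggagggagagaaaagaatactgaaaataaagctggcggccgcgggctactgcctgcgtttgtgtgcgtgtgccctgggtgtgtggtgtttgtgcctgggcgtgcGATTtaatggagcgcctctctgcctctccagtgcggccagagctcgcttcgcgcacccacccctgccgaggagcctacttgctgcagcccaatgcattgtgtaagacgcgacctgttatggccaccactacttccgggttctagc
The MECOM window held AATC on either strand 7 times, and 1 of these lay in the longer AAATCA (reverse complement TGATTT, which contains the core). Of 35116 RefSeq windows of the same length, 64.8% held the core at least once, the median was 1, and 0.316% held it 7 times or more. The cutoff of 7 is this window's own count, the highest of the 12 windows of the 8 genes. AAATCA was held by 11.6% of all windows. The MEIS1 window held the core 1 time. The windows before 2 nearer MECOM starts held it 3 times each, those of MEIS2 3 and 2 times (with AAATCA 1 time in the first), those of MEIS3 1 time each, that of PBX3 1 time, that of PBX2 0 times and those of HLF 3 and 0 times. The MECOM window had 53.6% G and C, below the 58% median of all windows. These letters describe the sequence and are no measure of binding, and the counts do not tell which start was used.

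The libraries held 2239214 and 2417410 counts for WT, against 146584 and 2332621 for GFI1-KO. GFI1-KO replicate 1 therefore stands apart by depth, with a median of 6 counts per tested gene against 86 to 91 in the others, and by histone cluster genes, at 0.216% of its counts against 0.0015% to 0.00277%. The fold change of each tested gene among the 8 is therefore also given without it. The list medians and the nearest genes below rest on all 4 libraries. GFI1 was at 58.5 and 58.3 CPM (counts relative to the TMM-adjusted library total) in WT and at 19.9 and 19.6 CPM in GFI1-KO, a log2 difference of -1.57 (SE 0.31, edgeR adjusted p = 0.0215). Of 12 endothelial markers, 12 were tested and their summed level was 6436 to 6645 CPM in WT and 7830 to 9261 CPM in GFI1-KO. KDR made up a large part of that sum, at 2995 and 3285 CPM in WT against 3703 and 4970 CPM in GFI1-KO. Among the 12, 1 passed, EMCN, the gene of the endothelial sialomucin endomucin, with 2.38 on the log2 scale (SE 0.41, edgeR adjusted p = 0.00959). Log2 fold changes were above 0 for 11 of the 12, while PECAM1 was at -0.33 (edgeR adjusted p = 0.759). Of 10 markers of hemogenic or early blood cells, 6 were tested and 0 passed, and the sum was 205 to 343 CPM in WT and 92.7 to 132 CPM in GFI1-KO, while PTPRC, HBE1 and HBZ had 0 counts in all 4 libraries. HBE1 exons overlap those of HBG2, and HBZ exons those of HBM. How shared reads were counted is not given, so these 0 counts need not mean absent RNA. Sums for 10 mesenchymal markers overlapped, at 1067 to 1694 CPM in WT and 1067 to 1263 CPM in GFI1-KO, as did those for 5 epithelial markers, at 447 to 652 and 225 to 540 CPM. Sums for 6 pluripotency markers, of which 2 were tested and 0 passed, were 144 CPM in each WT library against 79.5 and 107 CPM, and those for 8 neural markers, of which 1 was tested and 0 passed, were 343 and 377 against 431 and 608 CPM. Each of these sums was mostly that of 1 gene. NES was at 339 and 372 CPM in WT against 417 and 604 CPM in GFI1-KO. DPPA4 was at 119 and 115 CPM in WT against 79.5 and 95.3 CPM in GFI1-KO. The part of these marker shifts in the results below was not tested, and fewer cells of a type cannot be told apart from less RNA per cell in bulk libraries.

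Of the 8 genes, 7 passed the low-count filter and 1 of these, MECOM, rose in GFI1-KO; 0 fell and 6 did not pass an edgeR adjusted p of 0.05. Over all 11380 genes tested, 0.958% were called, 0.773% higher and 0.185% lower. The median log2 fold change of the 7 was 0.28, beside -0.02 for all genes tested. Above 0 were 5 of 7 values, beside 5404 of 11380 for all genes tested. For 3 of the 7 the genotypes did not overlap, each with GFI1-KO higher. Of all tested genes, 18.6% were apart with GFI1-KO higher and 41.2% in either direction. With 2 libraries per genotype an exact two-sided permutation test of a single gene cannot go below p = 0.333, so calls rest on the fit across all genes.

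**Figure D1:**
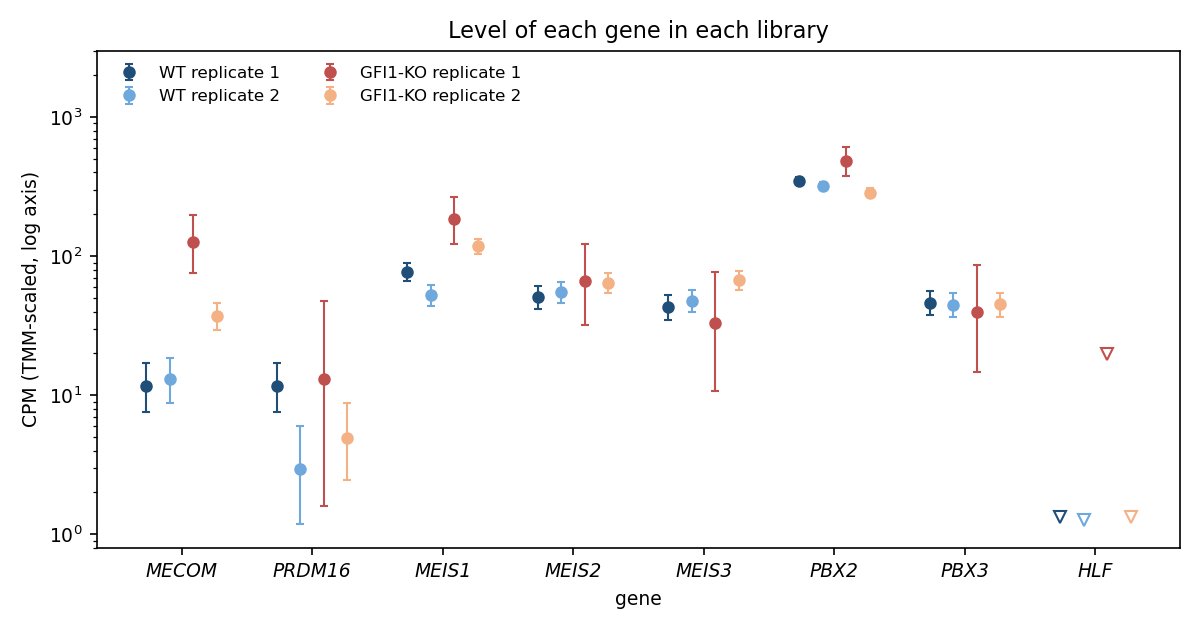
Level of the 8 genes in CPM on a log axis in each of the 4 libraries, with exact 95% Poisson intervals for counting error as bars; open triangles mark the level that 3 counts would give where 0 were counted. MECOM is at 11.6 and 13 CPM in WT against 126 and 36.9 CPM in the knockout, and the bars of the shallow GFI1-KO replicate 1 are wide.

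MECOM (ENSG00000085276) was covered by 26 and 31 reads in WT against 19 and 83 in the knockout. As levels these are 11.6 and 13 CPM in WT, and 126 CPM for GFI1-KO replicate 1 and 36.9 CPM for GFI1-KO replicate 2. Both GFI1-KO libraries lay above both WT libraries, a separation that 18.6% of all tested genes show upward and 22.7% show downward. The means were 12.3 ± 0.989 CPM (WT) and 81.4 ± 62.9 CPM (GFI1-KO; SD, n = 2 each), and the log2 fold change was 2.18 (SE 0.47, edgeR adjusted p = 0.0371).

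The direction of MECOM held in each library taken alone, and its size did not. GFI1-KO replicate 1 was 10.2 times the pooled WT level (exact 95% counting interval 5.73 to 17.4) and GFI1-KO replicate 2 was 3 times that level (2.11 to 4.27). The knockout libraries thus differed from each other by a factor of 3.41 (1.95 to 5.66), more than counting error gives, while WT replicate 1 was 0.893 times WT replicate 2 (0.509 to 1.55). With all 4 libraries, MECOM was called in 5 of 9 alternatives, in which 0.3% to 2.87% of all genes were called, and lost the call with upper-quartile scaling (adjusted p = 0.0673), library totals only (0.0622), a minimum mean of 5 CPM (0.0673) and the newer edgeR dispersion (0.0877). A fit without 1 library has a single library in that genotype, takes the spread between libraries from the other pair and assumes that the lone library varies like it, so its p-value holds no spread within the reduced genotype. Read that way, the MECOM log2 fold change was 1.58 without GFI1-KO replicate 1 (edgeR adjusted p = 0.00128) and 3.35 without GFI1-KO replicate 2 (adjusted p = 2.80e-08), with 3.18% and 2.36% of all genes called.

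PRDM16 (ENSG00000142611; 1:3069168-3438621, plus strand), the other PRDM gene of the set, was barely detected. It was covered by 26 and 7 reads in WT against 2 and 11 in the knockout, or 11.6 and 2.94 CPM against 13.2 and 4.9 CPM. The WT libraries alone differed by a factor of 3.95 (exact 95% counting interval 1.67 to 10.8), and the genotypes overlapped. The PRDM16 log2 fold change was -0.34 (SE 0.73, edgeR adjusted p = 0.966), and -0.55 without GFI1-KO replicate 1. It was above 0 in 5 of 13 alternatives and ran from -0.90 (without WT replicate 2) to 1.09 (without WT replicate 1). No difference was thus detectable at these counts and with this spread between the WT libraries.

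MEIS1 (ENSG00000143995; 2:66433452-66573869, plus strand) had the second highest fold change of the 7 and did not pass the threshold. Its counts were 172 and 125 in WT against 28 and 264 in the knockout, which are 76.8 and 52.5 CPM against 185 and 118 CPM. Both GFI1-KO libraries again lay above both WT libraries. The log2 fold change was 1.08 (SE 0.29, edgeR adjusted p = 0.0935), with means of 64.6 ± 17.2 and 151 ± 48.1 CPM (SD, n = 2 each).

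For MEIS1, too, the value was positive in 13 of 13 alternatives, from 0.86 to 1.53. With all 4 libraries it was called in 2 of 9, without the low-count filter (edgeR adjusted p = 0.0103) and with the replicate number as a block (0.000396). On a single knockout library, with the spread taken from the WT pair, it was 0.86 without GFI1-KO replicate 1 (adjusted p = 0.0365) and 1.53 without GFI1-KO replicate 2 (0.00435), whereas without WT replicate 2 it was 0.89 with an adjusted p of 0.725. Against pooled WT counts, GFI1-KO replicate 2 alone was at 1.83 times the level (exact 95% counting interval 1.54 to 2.17), and WT replicate 1 was itself 1.46 times WT replicate 2 (1.16 to 1.86). MEIS1 exons overlap the antisense genes MEIS1-AS2 and MEIS1-AS3, and since the strand setting of the counting is not given in the sources used here, their reads cannot be told apart.

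The other MEIS genes had smaller values. MEIS2 (ENSG00000134138; 15:36889204-37101299, minus strand) was covered by 114 and 131 reads in WT against 10 and 144 in the knockout, at 50.9 and 55 CPM against 66.2 and 64.1 CPM. The groups did not overlap, but the log2 fold change was only 0.28 (SE 0.26, edgeR adjusted p = 0.859), and the pooled ratio of 1.21 had an exact 95% counting interval of 0.984 to 1.49. Without GFI1-KO replicate 1 the value was 0.27. MEIS2 exons overlap the antisense gene AC078909.1.

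MEIS3 (ENSG00000105419; 19:47403124-47419523, minus strand) was covered by 96 and 114 reads in WT against 5 and 151 in the knockout. Its 42.9 and 47.8 CPM in WT lay between the knockout libraries, at 33.1 CPM in the shallow replicate and 67.2 CPM in the deep one. In GFI1-KO replicate 2 alone it was 1.48 times pooled WT (exact 95% counting interval 1.19 to 1.83), and in replicate 1 it was 0.729 times pooled WT on 5 counts (0.234 to 1.73). The log2 fold change was 0.42 (SE 0.28, edgeR adjusted p = 0.767), 0.57 without GFI1-KO replicate 1 and -0.44 without GFI1-KO replicate 2. GENCODE lists the processed pseudogenes MEIS3P1 and MEIS3P2, and how reads shared with such copies were counted is not given in the sources used here.

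PBX2 (ENSG00000204304; 6:32184741-32190186, minus strand), a general partner of MEIS and HOX proteins, was the most abundant of the 8. It was covered by 778 and 760 reads in WT against 73 and 645 in the knockout, at 347 and 319 CPM against 484 and 287 CPM. The knockout libraries lay on opposite sides of WT: GFI1-KO replicate 1 was 1.45 times pooled WT (exact 95% counting interval 1.13 to 1.84) and GFI1-KO replicate 2 was 0.863 times pooled WT (0.786 to 0.947). The log2 fold change was 0.11 (SE 0.25, edgeR adjusted p = 0.967), and -0.21 without GFI1-KO replicate 1 or 0.55 without GFI1-KO replicate 2. PBX2 has a processed pseudogene, PBX2P1, and overlaps exons of AL662884.1.

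PBX3 (ENSG00000167081; 9:125747345-125967377, plus strand) had the narrowest range of levels over the 4 libraries among the 7 genes counted. It was covered by 103 and 107 reads in WT against 6 and 101 in the knockout, at 46 and 44.9 CPM against 39.7 and 45 CPM. The log2 fold change was -0.04 (SE 0.28, edgeR adjusted p = 0.994) and lay between -0.18 and -0.02 in the 13 alternatives, at -0.02 without GFI1-KO replicate 1. For PBX3, pooled knockout over WT counts gave a ratio of 0.982 (exact 95% counting interval 0.771 to 1.25).

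HLF (ENSG00000108924; 17:55265012-55325065, plus strand) had 0 counts in each of the 4 libraries and was not tested. A count of 0 allows up to 1.34 and 1.26 CPM in WT, 1.34 CPM in the deep knockout library and 19.9 CPM in the shallow one, taking 3 counts as the limit. Over all 4 libraries together the limit is 0.427 CPM. Such limits and the intervals above describe counting error alone and hold no spread between libraries. PCR copies of a read were not told apart by molecular identifiers, so the counting error itself may be larger than they give.

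**Figure D2:**
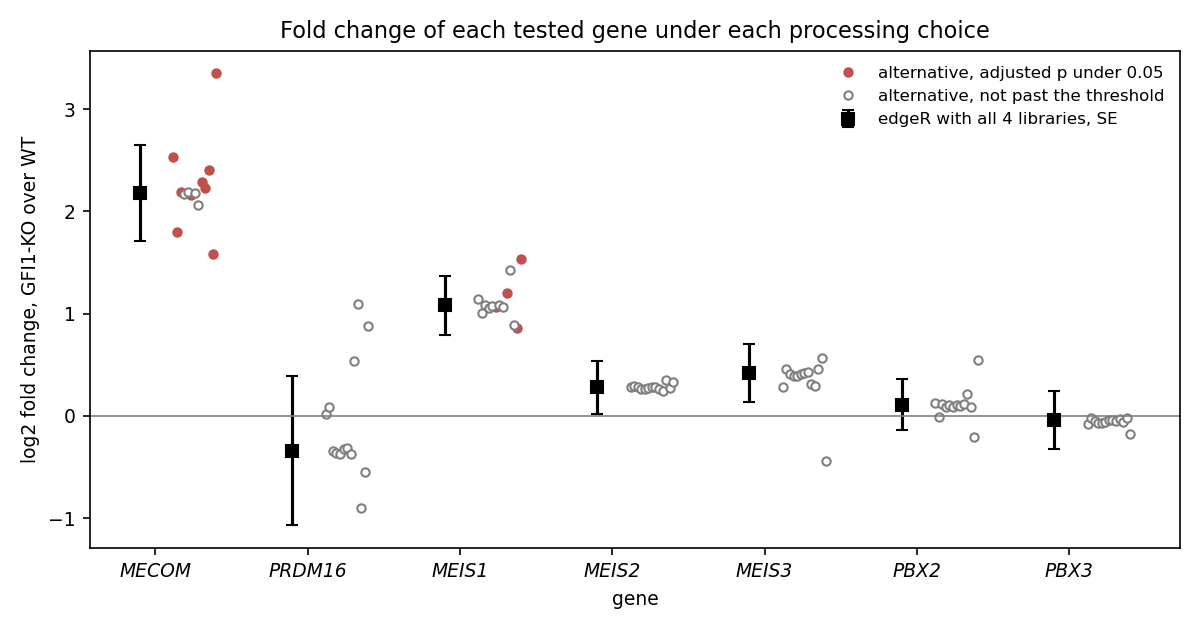
Log2 fold change of GFI1-KO over WT for the 7 tested genes: black squares with SE bars are edgeR with all 4 libraries, and circles are the 13 alternatives, filled red where the adjusted p is under 0.05. MECOM lies between 1.58 and 3.35 and MEIS1 between 0.86 and 1.53, while PRDM16 falls on both sides of 0.

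Per kilobase of merged exons, which allows genes to be ranked against each other, MEIS1 ranked below PBX3 and MEIS3 in WT; its mean was above both in GFI1-KO, but in GFI1-KO replicate 2 alone MEIS3 was above it (13.1 against 10.7 CPM per kb). In WT, PBX2 led at 76.7 ± 4.64 CPM per kb, followed by PBX3 at 10 ± 0.171, MEIS3 at 8.85 ± 0.686, MEIS1 at 5.91 ± 1.57, MEIS2 at 4.9 ± 0.266, MECOM at 1.35 ± 0.109 and PRDM16 at 0.745 ± 0.628 CPM per kb (SD, n = 2 each), with HLF at 0. Among neighbours in that order, only the ranges of MEIS1 and MEIS2 overlapped. In GFI1-KO, PBX2 was again first at 88.7 ± 32 CPM per kb, MEIS1 was second at 13.9 ± 4.4, and MEIS3, PBX3, MECOM and MEIS2 followed at 9.79, 9.35, 8.94 and 6.04 CPM per kb.

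From MEIS1 down to MEIS2 each knockout range overlapped that of its neighbour, so the order within this group is not resolved. The MECOM values per kb were 1.28 and 1.43 in WT against 13.8 and 4.06 in the knockout. Against all 11380 tested genes ranked per kb by their mean, MECOM stood at the 8.88th percentile in WT and the 56.6th in GFI1-KO, and MEIS1 at the 42.1st and the 70.6th. In GFI1-KO replicate 2 alone, MECOM stood at the 31.3rd percentile MEIS1 at the 62.3rd and MEIS3 at the 68.3rd, so the ranks of MECOM and MEIS1 from the mean lean on the shallow library. PBX2 stood at the 96.1st percentile in WT and the 96.9th in GFI1-KO, and at the 95.1st in GFI1-KO replicate 2 alone.

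Among relatives and partners of these genes, 2 of 59 tested passed the threshold, PRDM1 upward and GATA2 downward, against 0.958% of all genes. PRDM1 encodes the PR-domain repressor Blimp-1. It was covered by 97 and 123 reads in WT against 17 and 232 in the knockout, at 43.3 and 51.6 CPM against 113 and 103 CPM. Both knockout libraries were thus about equally high, and the log2 fold change was 1.15 (SE 0.25, edgeR adjusted p = 0.0409). The PRDM1 call was lost in 8 of 13 alternatives: with DESeq2 (adjusted p = 0.532), upper-quartile scaling (0.0634), library totals only (0.0559), the 5 CPM minimum (0.0658) and the newer dispersion (0.0704), and when WT replicate 1 (0.594), the second WT library (0.185) or GFI1-KO replicate 2 (0.0991) was left out. Without GFI1-KO replicate 1 it was 1.12, with an edgeR adjusted p of 0.00177 that rests on the spread of the WT pair.

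Of the 13 other PRDM genes, 9 were tested, 1 rose and 0 fell, with a median of -0.05. The next smallest adjusted p-values among them belonged to PRDM8, PRDM2, ZNF408 and PRDM10, with log2 fold changes of 0.68, 0.38, -0.52 and -0.36 and edgeR adjusted p of 0.792 to 0.887. PRDM8 had 0 counts in GFI1-KO replicate 1 and 47 in GFI1-KO replicate 2, against 25 and 27 in WT.

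Of 17 TALE and HOX partners, 12 were tested and 0 passed with edgeR. The median was 0.17 on the log2 scale, with 9 of 12 above 0, beside 5404 of all 11380 genes tested. HOXA9, a HOX partner of MEIS1, was covered by 14 and 2 reads in WT against 0 and 24 in the knockout (1.42, SE 0.75, adjusted p = 0.606). HOXB7 and HOXB8 were at 0.74 and 0.46 with adjusted p of 0.62 and 0.749. TGIF1, a TALE homeobox repressor gene, was at 31.7 and 31.5 CPM in WT against 26.5 and 41 CPM in the knockout, on both sides of WT (0.28, SE 0.31, adjusted p = 0.897).

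The chromatin partners of MECOM and PRDM16 were near 0. Of 14 tested, 0 passed, and the log2 fold changes ran from -0.22 for CTBP1, the corepressor that MECOM binds, to 0.32 for the acetyltransferase gene CREBBP. HDAC1 and RBBP4 were at 0.24 and -0.19, and edgeR adjusted p of these 4 genes was 0.846 to 0.909. Of the 3 listed bZIP relatives of HLF, 2 were tested and 0 passed, with NFIL3 at 0.73 (adjusted p = 0.698) and TEF at -1.04 (0.796).

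Of 16 other factors of stem cell specification, 14 were tested and 0 passed, with values from -1.33 to 1.03 and a median of 0.02. RUNX1, without which endothelium does not give rise to blood, was at 87.1 and 225 CPM in WT against 39.7 and 67.7 CPM in the knockout (-1.33, SE 0.38, edgeR adjusted p = 0.134). For RUNX1 the WT libraries decide the size: it was -0.52 without WT replicate 2 (adjusted p = 1) and -1.89 without WT replicate 1 (0.000735). It also passed without GFI1-KO replicate 1 (-1.21, 0.00113) or GFI1-KO replicate 2 (-1.97, 0.0096), with the replicate block (-1.63, 4.05e-06) and with no filter on low counts (0.000419). SOX17, an arterial and hemogenic endothelial factor, was at 109 and 55.4 CPM in WT against 146 and 177 CPM in the knockout (1.03, SE 0.30, adjusted p = 0.135). SOX17, too, was 0.62 without WT replicate 2 (adjusted p = 1) and 1.59 without WT replicate 1 (0.0246), and it passed without GFI1-KO replicate 1 (1.11, 0.00116), with the replicate block (1.20, 0.000359) and with no filter on low counts (0.0115). For GATA3 the value was 0.80 (adjusted p = 0.201) and for GFI1B -0.87 (0.433); the exons of GFI1B overlap those of TSC1. In 9 of these 14 genes the genotypes did not overlap, 5 higher and 4 lower; 41.2% of all tested genes show such a separation, and the difference between these shares was not tested.

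Of 11 genes reported downstream of MECOM, MEIS1, PRDM16 or HLF, 9 were tested, 0 rose and 1 fell. GATA2, a reported target of EVI1 and the gene whose reporter chose the cells, fell from 293 and 252 CPM to 139 and 124 CPM (log2 fold change -1.09, SE 0.24, edgeR adjusted p = 0.0376). The GATA2 call was lost in 7 of 13 alternatives: with DESeq2 (adjusted p = 0.12), upper-quartile scaling (0.0518), the 5 CPM minimum (0.0673) and the newer dispersion (0.0675), and when GFI1-KO replicate 2 (0.131), WT replicate 1 (0.446) or the second WT library (0.0876) was left out. Without GFI1-KO replicate 1 it was -1.13, with an edgeR adjusted p of 0.00085 that again rests on the WT pair. BCL2, an anti-apoptotic gene, was covered by 5 and 12 reads in WT against 4 and 30 in the knockout (2.03, SE 0.59, adjusted p = 0.134). BCL2 passed in 1 of 13 alternatives, with no filter on low counts (2.04, edgeR adjusted p = 0.0438). EPAS1, the HIF2A gene, was at 18.3 and 17.2 CPM in WT against 33.1 and 28.9 CPM in the knockout (0.74, adjusted p = 0.559). The mitochondrial fusion gene MFN2, reported downstream of PRDM16, was at -0.38 (adjusted p = 0.759) and SOCS2 at 0.44 (adjusted p = 0.913).

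**Figure D3:**
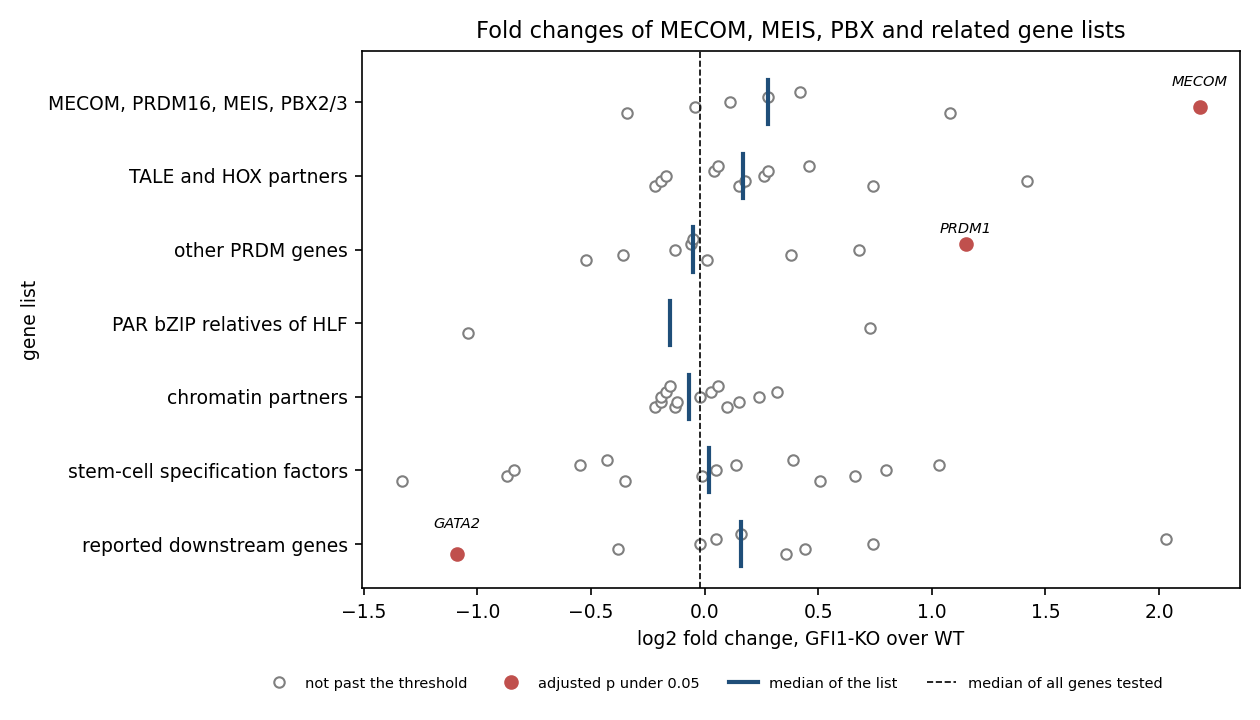
Log2 fold change of GFI1-KO over WT for every tested gene of the 8 and of 6 related lists, 1 circle per gene, red where the edgeR adjusted p is under 0.05, with each list's median as a blue bar and the median of all genes tested, -0.02, as a dashed line. MECOM, PRDM1 and GATA2 are the red points.

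The genes whose levels followed those of MECOM most closely over the 4 libraries were ME3, EFNB2, FAT3, ZNF366 and NCALD. Likeness was measured as the root mean square difference of log2 CPM, centred on each gene's mean, among 10964 genes that averaged 5 CPM or more, and ran from 0.20 to 0.26. EFNB2, the arterial ephrin-B2 ligand gene, was the nearest gene with ample counts: 142 and 185 reads in WT against 76 and 480 in the knockout, at 63.4 and 77.6 CPM against 503 and 214 CPM. Like MECOM it was higher in GFI1-KO replicate 1 than in replicate 2 (log2 fold change 2.18, SE 0.32, edgeR adjusted p = 0.00383). ME3, FAT3, ZNF366 and NCALD had 2 to 5 counts in GFI1-KO replicate 1, with log2 fold changes of 1.95 to 2.82 and edgeR adjusted p of 0.152 to 0.329. Each was below 5 CPM in both WT libraries, from 0.839 CPM (ZNF366) to 4.47 CPM (NCALD). They thus met the 5 CPM minimum only through the knockout libraries. Of them, FAT3 and NCALD passed with the replicate block (edgeR adjusted p = 0.0236 and 0.0234).

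MEIS1 had closer neighbours, at 0.06 to 0.10: TENT5B, KCNK6, ACVR2A, CNRIP1 and GNG7. KCNK6, a potassium channel gene, was at 29.5 and 21.4 CPM in WT against 72.9 and 51.2 CPM in the knockout (log2 fold change 1.13, SE 0.32, edgeR adjusted p = 0.127). TENT5B was at 25.5 and 18.5 CPM in WT against 59.6 and 40.1 CPM in the knockout. The 5 had log2 fold changes of 0.90 to 1.13 and adjusted p of 0.127 to 0.666, so 0 of them passed. With the replicate block, KCNK6 (edgeR adjusted p = 0.0134) and GNG7 (0.0323) passed, and KCNK6 also passed with no filter on low counts (0.0394). Without GFI1-KO replicate 1 the KCNK6 value was 1.01. With 4 libraries and 10964 genes compared, close neighbours are a description of these libraries.

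**Figure D4:**
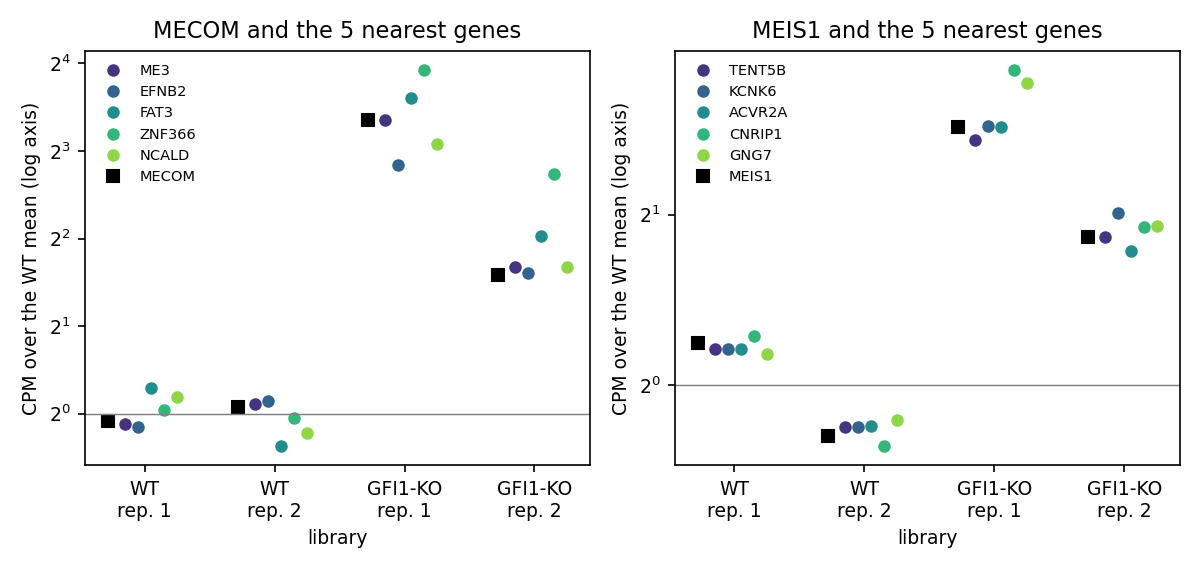
CPM of MECOM (left) and MEIS1 (right) as black squares, each with its 5 nearest genes as circles, divided by that gene's WT mean, on a log axis for the 4 libraries. In both panels GFI1-KO replicate 1 is highest, GFI1-KO replicate 2 second, and the WT libraries lie near 1.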

How the data were processed

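Raw read counts per gene in 4 libraries were used as the authors deposited them. HTSeq 0.6.0, HISAT2 2.0.4, DESeq 1.18.1 and SAMtools 1.3.1 are named for hg38/GRCh38, per the submitters' processing notes, with no roles. How strands and shared reads were counted, and with which annotation, was not given in the sources used here. Per the labels' protocols, total RNA was extracted with Trizol and prepared with a TruSeq kit. Of 19912 identifiers, 19902 matched GENCODE release 29, which gave symbols, GRCh38 coordinates and merged exon lengths.

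Counts were tested with edgeR 4.0.16 in R 4.3.3: TMM, filterByExpr (minimum count 10, total 15), glmQLFit in its default form and glmQLFTest over all 11380 genes, Benjamini-Hochberg adjusted, threshold 0.05, prior count 0.125. SE is the unshrunken log2 fold change over the square root of F. Ratios carry exact conditional 95% intervals. Likeness used a prior count of 2. Scripts were tested on simulated data. The 8 genes, the lists and the naming rule (all 8 genes; list members past the threshold plus 4 with the smallest adjusted p; 5 nearest genes) were chosen with earlier results of these data known; 1 listed gene is not reported here. Alternatives were DESeq2 1.42.0, limma-voom (limma 3.58.1), 3 scalings, 2 filters, the newer dispersion, leaving out each library and a replicate block.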

Additional observations from a re-analysis of the deposited data

How the results depend on the processing

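Of the 8 genes, 1 passed with edgeR and all 4 libraries. That count was 0 with upper-quartile scaling, with library totals only, with a minimum mean of 5 CPM and with the newer dispersion, and 2 (MECOM and MEIS1) without the low-count filter; leaving out 1 library gave 1 to 2. Over all genes, 109 passed; the count was 28 with DESeq2, 58 with upper-quartile scaling, 72 with library totals only, 305 without the filter, 50 with the minimum mean and 58 with the newer dispersion, and 62 to 373 when 1 library was left out (373 without the shallow GFI1-KO replicate 1, 274 without the other knockout library, 62 without WT replicate 1). Of the listed relatives and partners, 2 passed; the count was 0 with DESeq2, upper-quartile scaling, the minimum mean and the newer dispersion, 1 with library totals only, 6 without the filter, and 1 to 5 when 1 library was left out. The cause of these shifts was not tested.

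The labels do not tie the shared replicate numbers to a common culture, and deviations of same-numbered libraries from their group means correlated at 0.116 across 11380 genes. With the replicate number as a block, 2 of the 8 genes passed, MECOM at 2.29 and MEIS1 at 1.20, with 327 of all genes and 4 of the listed ones.

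Directions reversed for PRDM16 with DESeq2 (0.02), limma-voom (0.09) and the replicate block (0.54), and for PBX2 with limma-voom (-0.01). Leaving out 1 library in turn moved PRDM16 from -0.90 to 1.09 (0.88 on the shallow knockout library alone), MEIS3 from -0.44 to 0.57, PBX2 from -0.21 to 0.55, HOXA9 from -5.50 to 3.24, TGIF1 from -0.24 to 0.37, PRDM8 from -7.17 to 0.89, SOCS2 from -6.65 to 0.62, TEF from -7.01 to 0.27 and CREBBP from -0.02 to 0.77. The lowest values of HOXA9, PRDM8, SOCS2 and TEF rest on 0 counts in the shallow knockout library. Depth limits what can be read: 3 counts are 19.9 CPM in GFI1-KO replicate 1 and 1.26 to 1.34 CPM elsewhere.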

Other observations

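HOXA3, HOXA5 and HOXA7, whose proteins belong to the HOX partners of MEIS and PBX factors, had 0 or 1 counts in each WT library. Each was counted in 1 of the 2 knockout libraries. They were picked out after their values were seen and did not pass the low-count filter of the main edgeR fit. The share of all genes with such a pattern was not counted. HOXA3 had 2 counts in GFI1-KO replicate 2. HOXA7 was counted 1 time in each WT library, 0 times in GFI1-KO replicate 1 and 21 times in GFI1-KO replicate 2, which is 21.6 times the pooled WT level with an exact 95% counting interval of 5.28 to 190. HOXA5 had 1 and 0 counts in WT, 0 in GFI1-KO replicate 1 and 7 in GFI1-KO replicate 2, a ratio of 14.4 (1.85 to 649). The 0 counts in GFI1-KO replicate 1 allow up to 19.9 CPM, above the 9.35 CPM of HOXA7 in GFI1-KO replicate 2, so that library does not tell whether the level was the same. Of the neighbouring genes, HOXA10 did not share this pattern. It was covered by 22 and 0 reads in WT against 0 and 9 in the knockout. The HOXA10 level was higher in WT replicate 1 (9.82 CPM) than in GFI1-KO replicate 2 (4.01 CPM). HOXA9, which was tested and did not pass, shared the pattern in part. It was at 6.25 and 0.839 CPM in WT against 0 and 10.7 CPM in the knockout. In GFI1-KO replicate 2 HOXA9 was 3.09 times pooled WT (exact 95% counting interval 1.57 to 6.22). HOXA7 exons overlap the antisense gene HOXA-AS3. Those of HOXA9 and HOXA10 overlap AC004080.3 on the same strand, and how shared reads were counted is not given.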
